A study of Homo sapiens with 52 samples.

Results

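The MHC class II genes HLA-DRA, HLA-DRB1, HLA-DPA1, HLA-DPB1, HLA-DMA and HLA-DMB, with CD74 and their co-activator CIITA, were followed in 3 breast cancer cell lines after knockdown of the co-receptor neuropilin-1 (NRP1). The 8 genes were taken by name from the 78894 genes of the gene-level tables. Levels are TPM (transcript abundance scaled for gene length and library size), and fold changes come from expected read counts. SUM159PT, MDA-MB-231 and HS578T are established lines that the study treats as claudin-low, a mesenchymal type of breast cancer. Each line had 6 groups. Transfected cells received siNRP1#3, siNRP1#5 or the non-targeting control siNT at 20 nM and were harvested at 72 hrs. Transduced cells carried a lentiviral shNRP1#3, shNRP1#5 or the non-targeting control shNT and were selected with puromycin, with RNA taken 48 hrs after seeding. The #3 sequences were designed against transmembrane NRP1 and the #5 sequences against transmembrane and soluble NRP1. The siRNA and the shRNA named #5 have the same sequence, so that loss of total NRP1 and any other property of that sequence cannot be told apart in the comparisons below. Of the 18 groups, 16 had 3 samples, while SUM159PT siNRP1#5 and HS578T shNRP1#3 had 2. The study calls its replicates biological and independent. Those with shRNA were consecutive passages of the transduced cells, so p-values there measure the spread between passages.

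MHC class II molecules are pairs of an alpha and a beta chain that display peptides from endocytosed proteins to CD4 T cells. Professional antigen-presenting cells make them constitutively, and many other cells, tumour cells included, make them after interferon gamma has induced CIITA. CIITA binds no DNA itself. It is recruited to the shared X and Y boxes of class II promoters by a complex of RFX, CREB and NF-Y proteins. CD74, the invariant chain, blocks the peptide groove and guides the chains to endosomes, where HLA-DM (HLA-DMA and HLA-DMB) exchanges its remnant for peptide.

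On GRCh38, the 6 HLA genes lie in the class II region of chromosome 6. HLA-DRA spans 32439878 to 32445046 on the plus strand, HLA-DRB1 32577902 to 32589848 on the minus strand, HLA-DMB 32934629 to 32941028 and HLA-DMA 32948613 to 32969094, both on the minus strand. HLA-DPA1 (33064569 to 33080775, minus strand) and HLA-DPB1 (33075990 to 33089696, plus strand) overlap between 33075990 and 33080775. The study counted reads from a stranded kit with a strand-specific setting, so the opposite strands of that overlap were counted apart. CD74 lies on chromosome 5 from 150401637 to 150412969 and CIITA on chromosome 16 from 10866222 to 10943021. HLA-DRB1 is close in sequence to HLA-DRB5 and to other DRB genes, and its counts are uncertain to that extent.

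The promoters of 5 members are shown because each holds letters of the Y box. RFX, CREB and NF-Y bind class II genes at the boxes searched. HLA-DPA1, which is not shown, held X1 and X2 cores but no Y core. They are the 140 bases before the RefSeq transcription start (GRCh38.p14), written 5′ to 3′ in the direction of transcription, with capitals for letters that match a searched core on either strand. Among the 5 stretches shown, the X2 core, for CREB, was found in that of HLA-DMB alone, and those of HLA-DMA and HLA-DPB1 held Y cores alone. The cores were ATTGG for the Y box, GNAACNG for X1, and TGACG or TGCGT for X2.
HLA-DRB1 (chr6:32589849-32589988, minus strand): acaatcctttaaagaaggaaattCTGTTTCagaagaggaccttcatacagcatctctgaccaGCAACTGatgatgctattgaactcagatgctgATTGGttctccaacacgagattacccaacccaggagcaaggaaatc
HLA-DMB (chr6:32941029-32941168, minus strand): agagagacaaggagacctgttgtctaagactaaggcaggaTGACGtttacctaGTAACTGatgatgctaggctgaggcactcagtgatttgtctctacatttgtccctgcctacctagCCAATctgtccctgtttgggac
HLA-DMA (chr6:32953098-32953237, minus strand): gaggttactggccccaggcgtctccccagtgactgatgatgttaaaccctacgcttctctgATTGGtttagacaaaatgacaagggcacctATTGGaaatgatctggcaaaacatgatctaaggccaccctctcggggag
HLA-DPB1 (chr6:33075850-33075989, plus strand): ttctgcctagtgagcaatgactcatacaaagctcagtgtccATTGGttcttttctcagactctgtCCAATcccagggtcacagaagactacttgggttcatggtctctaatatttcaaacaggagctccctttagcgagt
CD74 (chr5:150412911-150413050, minus strand): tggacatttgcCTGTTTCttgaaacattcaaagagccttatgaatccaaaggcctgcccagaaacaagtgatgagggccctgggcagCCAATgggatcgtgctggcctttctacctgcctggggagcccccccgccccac

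RefSeq windows of 300 bases (250 before the start and 50 after it) were given for 6 of the 8 members. No window of HLA-DRA or CIITA was used. In HLA-DRB1 the X1 core at -78 to -72 preceded the Y core at -46 to -42 by 25 bases, and this order with 15 to 30 bases between was found in 1.356% of all 35116 promoter windows. The other windows held the letters without that spacing. HLA-DMB had X1 at -87 to -81 and a Y core at -22 to -18, HLA-DMA had Y cores at -79 to -75 and at -49 to -45, and HLA-DPB1 had Y cores at -99 to -95 and at -75 to -71. CD74 had a single Y core at -53 to -49, and the windows of HLA-DPA1 had none. Single cores are common letters: the Y core was in 34.61% of all windows, X1 in 41.88% and X2 in 39.1%. A motif of the interferon gamma-activated site (TTC, any 3 bases, GAA) was in 7.657% of all windows and in none of the members' windows.

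Expected counts added up to between 25310443 and 72003442 per sample. NRP1 was lower in all siNRP1#5 and shNRP1#5 groups, with log2 fold changes of -4.31 and -2.30 in SUM159PT, -4.88 and -1.05 in MDA-MB-231 and -2.66 and -2.09 in HS578T. The #3 sequences gave -2.09 and -1.31 in SUM159PT, -0.70 and -1.48 in MDA-MB-231 and -1.20 and -1.59 in HS578T, the last not past the threshold. In MDA-MB-231 the siNRP1#3 libraries had 24.8 to 31.3 NRP1 TPM against 25.6 to 31.6 in siNT, so that the knockdown was seen in counts and not in gene-level TPM. The HS578T siNRP1#5 libraries carried RNA of another line. A set of 57 genes that HS578T hardly expressed stood in them at 24.1, 17.6 and 12.5% of the MDA-MB-231 level (replicates 1 to 3), against 1.95 to 6.79% in HS578T siNRP1#3 and at most 1.32% in HS578T siNT. One MDA-MB-231 shNRP1#3 library, replicate 3, carried 2.21% of SUM159PT and 1.85% of HS578T. White blood cells express class II constitutively, and 9 of their markers were checked. MS4A1 was at 0 in all libraries and CD3E had at most 3 counts in any. Others of the list were expressed. CSF1R had 4.11 to 27.2 TPM in HS578T and up to 5.85 in MDA-MB-231, and CD14 had up to 23.1 TPM in SUM159PT and up to 5.96 in MDA-MB-231. The summed TPM of the list was 2.37 to 8.7 in MDA-MB-231, 5.27 to 26.18 in SUM159PT and 5.73 to 28.62 in HS578T. PTPRC, the pan-leukocyte marker, reached 0.47 TPM in MDA-MB-231 and 13.1 in SUM159PT. Claudin-low cells by definition express little CLDN3, CLDN4 and CLDN7. MDA-MB-231 had 62.6 to 226 TPM of CLDN4, 10.4 to 61.5 of CLDN7 and 2.87 to 13.4 of CLDN3, where the medians of the other lines were at most 1.02. Its CDH1, also low by that definition, was at 0.02 to 3.33 TPM, and the mesenchymal markers VIM (at least 1311 TPM) and ZEB1 (5.24 to 19.7 TPM) were expressed.

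The lines differed widely in class II before any knockdown. Summed over the 8 genes, MDA-MB-231 had 649 ± 166 TPM in siNT and 628 ± 96.3 in shNT (SD, n = 3 each). SUM159PT had 102 ± 12.1 and 45.7 ± 10.6, and HS578T had 13.1 ± 2.60 and 7.17 ± 2.18. CD74 made up most of the sum in MDA-MB-231, with 488 ± 109 TPM in siNT. Among the chains, HLA-DRA had 50.7 ± 20.4 TPM there and HLA-DMB 8.64 ± 2.30, while CIITA itself stood at 4.11 ± 0.64.

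Each of the 8 genes was higher in MDA-MB-231 than in SUM159PT (edgeR, background 27.6% of genes higher) and than in HS578T (background 35.4%). HLA-DRB1 reached the filter on low counts in no NT library of SUM159PT or HS578T, nor HLA-DMB in any of HS578T. The counts of members called between lines are therefore descriptions. The log2 differences ranged from 1.66 (HLA-DMA) to 6.56 (HLA-DRB1) against SUM159PT, and from 1.50 (HLA-DMA) to 8.39 (CD74) against HS578T. HLA-DRA differed from SUM159PT by 6.29 (SE 0.37, adjusted p = 4.77e-18) where CD74 differed by 2.80 (SE 0.36, adjusted p = 2.05e-08). Against HS578T, SUM159PT was higher for 6 genes (background 33.7%). HLA-DMA (-0.16, adjusted p = 0.561) and HLA-DRB1 (0.47, adjusted p = 0.497) did not pass. With siNT libraries alone HLA-DRA did not pass either (0.997, adjusted p = 0.12, against 2.08 with both controls). HS578T had HLA-DMA at 8.49 ± 0.47 TPM in siNT, while each classical chain there was below 1 TPM.

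**Figure D1:**
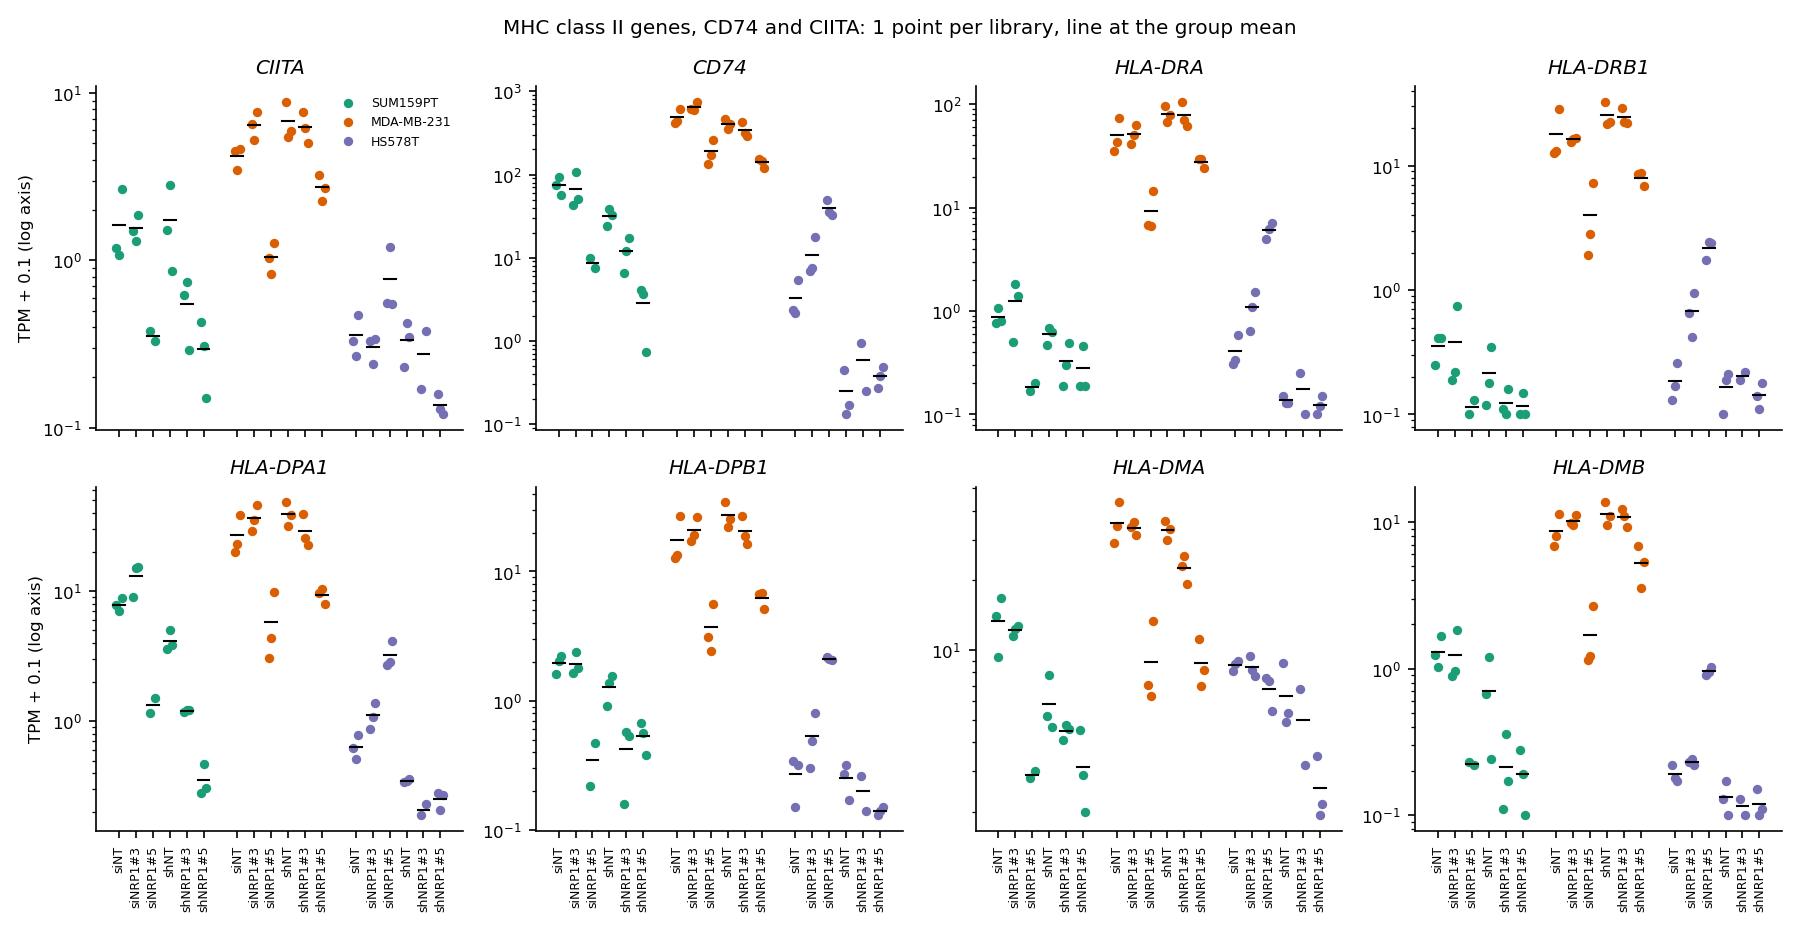
TPM + 0.1 on a log axis for each gene, with 1 point per library, a black line at each group mean, and the 18 groups along the x axis. MDA-MB-231 lies highest in its NT controls for all 8 genes, its siNRP1#5 and shNRP1#5 libraries lie below their NT controls, and the HS578T siNRP1#5 libraries lie above siNT for all genes but HLA-DMA.

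In MDA-MB-231, siNRP1#5 lowered all 8 genes (edgeR, 8 of 8 lower, background 14.9% of genes lower). All passed the filter on low counts in all groups. Their median log2 fold change was -2.06, against 0.01 over all genes. CIITA, the co-activator, stood at 4.38, 3.38 and 4.56 TPM in the siNT libraries and at 0.93, 0.73 and 1.17 after siNRP1#5. The siNRP1#5 libraries were all below the lowest siNT library. Its log2 fold change was -2.37 (SE 0.23, adjusted p = 3.05e-07), which placed it in the lowest 0.883% of the genes tested.

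HLA-DRA, the alpha chain of HLA-DR, went from 35.4, 42.8 and 73.8 TPM to 6.78, 6.58 and 14.3 (log2 fold change -2.22, SE 0.34, adjusted p = 0.000117). Its partner HLA-DRB1 had 12.5, 13.1 and 28.3 TPM in siNT and 1.81, 2.71 and 7.11 after siNRP1#5 (-1.92, adjusted p = 0.00248). Replicate 3 was the highest library of both groups for both chains, and the groups did not overlap. The pair that forms HLA-DP had log2 fold changes of -2.05 (HLA-DPA1, adjusted p = 0.00138) and -2.07 (HLA-DPB1, adjusted p = 0.000209).

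For the peptide editor HLA-DM, HLA-DMB stood at 6.74, 7.97 and 11.2 TPM in siNT and at 1.04, 1.12 and 2.59 after siNRP1#5 (-2.12, adjusted p = 9.88e-05). HLA-DMA changed by -1.81 (adjusted p = 3.29e-05). CD74 had the smallest change of the 8, from 413, 438 and 613 TPM to 136, 173 and 263 (-1.10, SE 0.24, adjusted p = 0.00193). It kept 39.0% of its siNT mean TPM, against 18.2 to 24.8% for the other members. Fewer cells expressing a gene and less RNA per cell cannot be told apart in these bulk samples.

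The shRNA with the same sequence gave lower levels of all 8 genes as well (shNRP1#5 against shNT, background 11.9% lower, median -1.52). CIITA had 8.79, 5.38 and 5.85 TPM in shNT and 3.16, 2.17 and 2.61 after shNRP1#5. These groups did not overlap, and the log2 fold change was -1.41 (SE 0.21, adjusted p = 0.00019). HLA-DRA went from 96.3, 67.8 and 78.2 TPM to 29.3, 29.6 and 24.2 (-1.48, adjusted p = 0.00459). HLA-DPB1 had the largest change (-2.13, adjusted p = 0.000354), followed by HLA-DPA1 (-2.03) and HLA-DMA (-1.87). HLA-DMB had the smallest (-1.06, adjusted p = 0.019). It lost its call in 3 of 6 fits that left out a replicate, and HLA-DRB1 (-1.56) lost its call in 1.

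CD74 had 460.3, 350.5 and 404 TPM in shNT and 154, 145 and 120.2 after shNRP1#5 (-1.47, adjusted p = 0.000468). The fold changes of the siRNA and the shRNA were compared in 1 model. CIITA fell further with the siRNA (difference -0.97, adjusted p = 0.0262, background 23.7% of genes), and the differences of the other 7 genes, from -1.05 (HLA-DMB, adjusted p = 0.0946) to 0.37 (CD74), did not pass. Among the white blood cell markers, the summed TPM was 4.79 to 6.89 in siNT and 3.11 to 5.86 in siNRP1#5, and 6.88 to 7.96 in shNT and 2.37 to 3.78 in shNRP1#5. CD14 and ITGAX were lower in shNRP1#5, while CSF1R was lower and ITGAX higher in siNRP1#5. MS4A1 was at 0 in all MDA-MB-231 libraries and PTPRC had at most 22 counts, while CD14 reached 315 counts and CSF1R 308. The part of these markers in the class II result was not tested.

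None of the 8 genes passed the test with siNRP1#3 or shNRP1#3 in MDA-MB-231. CD74 with siNRP1#3 was called higher with no filter (0.48, adjusted p = 0.00703) and with only 2 groups fitted (0.48, adjusted p = 0.0381), and HLA-DMA with shNRP1#3 was called lower in the same settings (-0.58, adjusted p = 0.0288, and -0.54, adjusted p = 0.0188). With siNRP1#3 the log2 fold changes ran from -0.08 (HLA-DRB1) to 0.49 (CD74), with 0 called by edgeR (background 25.7%), 0 by DESeq2 and 1 at an unadjusted p under 0.05. With shNRP1#3 they ran from -0.55 (HLA-DMA) to -0.03 (HLA-DRA), with 0 called by edgeR (background 3.65%), 0 by DESeq2 and 1 at an unadjusted p under 0.05. CIITA had 6.41, 5.14 and 7.62 TPM after siNRP1#3, all above the siNT libraries, and 7.59, 6.06 and 4.95 after shNRP1#3, which overlap shNT. The summed TPM was 831 ± 106 and 538 ± 122 in these groups.

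The groups #5 and #3 were also compared directly, a contrast added after the values were seen, since both share their NT libraries in the comparisons above. With siRNA the 8 genes were lower in #5 (background 18.9% lower), from -1.59 (CD74) to -2.85 (CIITA). With shRNA they were lower too (background 8.24%), from -0.99 (HLA-DMB) to -1.69 (HLA-DPB1). NRP1 was at 0.48 to 1.5 TPM in siNRP1#5 and 24.8 to 31.3 in siNRP1#3, but at 29.8 to 42.0 in shNRP1#5 and 32.7 to 35.2 in shNRP1#3, where the TPM ranges overlap. In read counts scaled to library size (CPM) the shRNA groups did not overlap. NRP1 was at 75.5 to 90.1 CPM in shNRP1#5 and lower, at 58.7 to 68.9, in shNRP1#3.

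**Figure D2:**
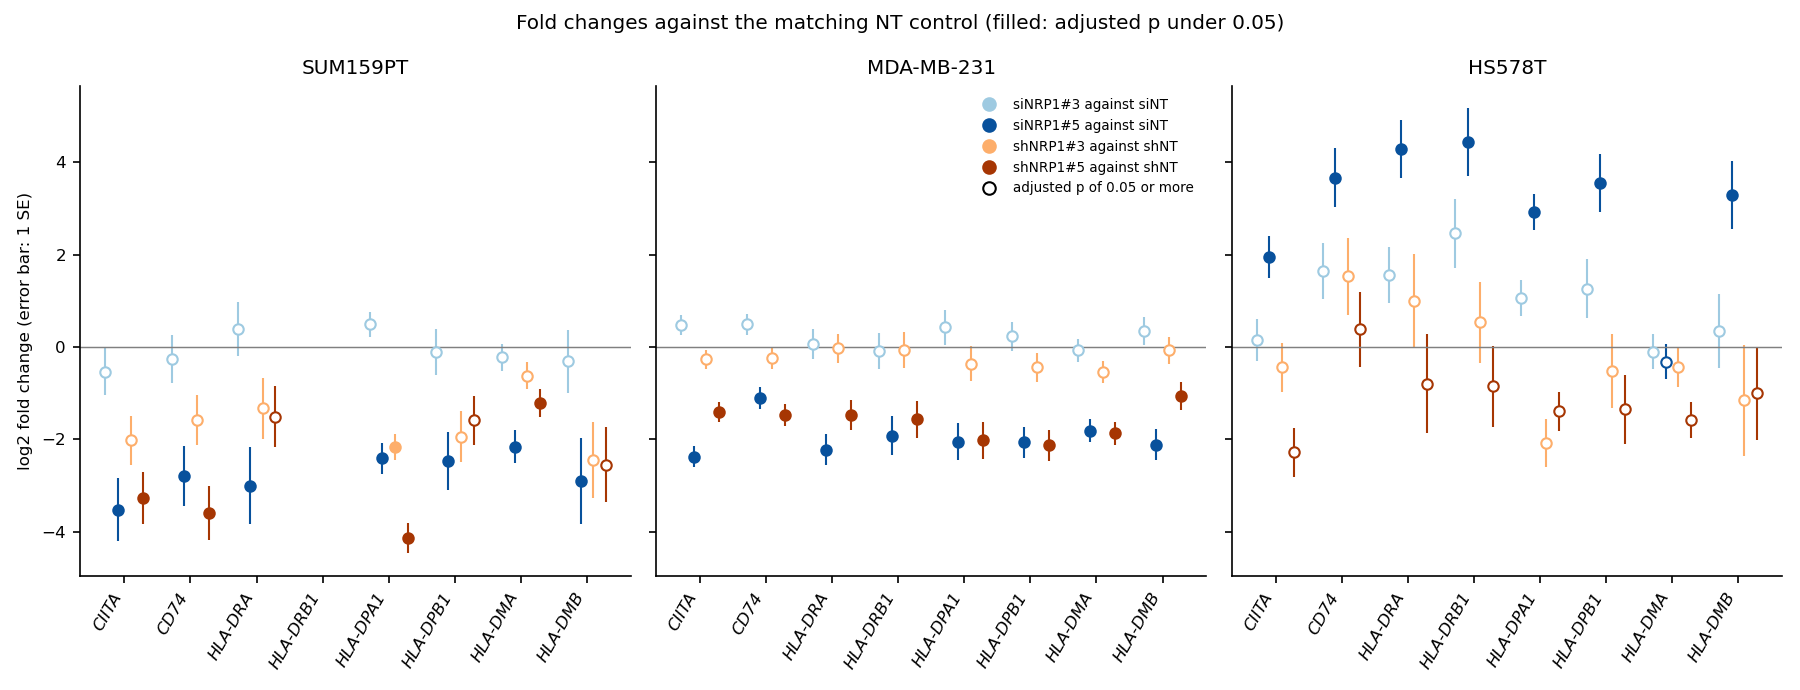
Log2 fold changes against siNT or shNT (y axis, bars of 1 SE) for each gene in each line, filled where the adjusted p was under 0.05. In MDA-MB-231 the siNRP1#5 and shNRP1#5 points lie between -2.37 and -1.06 and the #3 points between -0.55 and 0.49, while in HS578T the siNRP1#5 points lie above 0 for 7 genes.

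SUM159PT expressed the same genes at lower levels. HLA-DRB1 had at most 0.64 TPM and reached the count filter in 1 library only, so 7 of the 8 genes were tested. After siNRP1#5 all 7 were lower (edgeR, background 8.89% lower). HLA-DRA and HLA-DMB reached the count filter in other groups and not in siNRP1#5, nor HLA-DMB in shNRP1#5, so the counts over the 7 genes are a description. CIITA stood at 1.08, 0.97 and 2.56 TPM in siNT and at 0.28 and 0.23 in the 2 siNRP1#5 libraries (-3.52, SE 0.68, adjusted p = 0.00304). CD74 had 75.2, 92.5 and 56.9 TPM in siNT and 9.7 and 7.32 after siNRP1#5 (-2.80, SE 0.65, adjusted p = 0.0095), with no overlap. HLA-DPA1, the most abundant classical chain of this line, went from 7.74, 6.9 and 8.71 TPM to 1.05 and 1.41 (-2.41, adjusted p = 0.000464). HLA-DMA went from 13.9, 9.19 and 16.6 TPM to 2.69 and 2.89 (-2.16, adjusted p = 0.0013).

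HLA-DRA (-3.00, adjusted p = 0.0203), HLA-DMB (-2.90, adjusted p = 0.0391) and HLA-DPB1 (-2.47, adjusted p = 0.0141) rest on few reads, with 3 and 5 counts for HLA-DRA in the siNRP1#5 libraries against 26 to 47 in siNT. In fits without 1 replicate, HLA-DMB lost its call in 4 of 5, HLA-DRA in 2, and CD74 and HLA-DPB1 in 1 each. When only siNT and siNRP1#5 were fitted, 1 of the 7 genes was called. The summed TPM of the white blood cell markers was 9.3 to 26.18 in siNT and 10.33 to 10.83 in siNRP1#5, and their part in the result was not tested.

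After shNRP1#5, 4 genes were lower in SUM159PT (background 2.7% lower). HLA-DPA1 had 3.49, 4.93 and 3.77 TPM in shNT and 0.18, 0.37 and 0.21 after shNRP1#5 (-4.14, SE 0.33, adjusted p = 5.21e-06), which placed it in the lowest 0.209% of genes. CD74 went from 24.2, 38.6 and 32.8 TPM to 4.0, 3.53 and 0.63 (-3.60, adjusted p = 0.00172). CIITA went from 1.42, 2.73 and 0.76 TPM to 0.33, 0.21 and 0.05 (-3.27, adjusted p = 0.00245). The groups of these 3 genes did not overlap, a description of 3 libraries each with no share over all genes beside it. HLA-DMA changed by -1.21 (adjusted p = 0.0247) and lost its call in 4 of 6 fits without 1 replicate. The shNRP1#5 libraries carried 0.339, 0.827 and -0.0553% of the MDA-MB-231 level (replicates 1 to 3). At the shNT level of MDA-MB-231 that share would bring 0.926 and 2.26 CPM of CD74 into replicates 1 and 2, against 2.97 and 3.05 measured, and more HLA-DRA (0.183 and 0.446 CPM) than the 0.0637 and 0.291 measured. Without replicate 2 the log2 fold changes were -3.91 for CD74, -3.32 for CIITA and -4.52 for HLA-DPA1, all still called, -1.32 for HLA-DMA (adjusted p = 0.0648) and -2.60 for HLA-DRA (adjusted p = 0.0963). HLA-DMB (-2.55, adjusted p = 0.0814), HLA-DPB1 (-1.59, adjusted p = 0.094) and HLA-DRA (-1.51, adjusted p = 0.221) did not pass. DESeq2 called 6 members, a count with no share over all genes beside it.

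With siNRP1#3 the 7 log2 fold changes lay between -0.53 (CIITA) and 0.49 (HLA-DPA1), with 0 called by edgeR (background 8.66%) or DESeq2 and 0 at an unadjusted p under 0.05. With shNRP1#3, HLA-DPA1 was lower (1 of 7, background 1.06% lower). It stood at 1.08, 1.12 and 1.13 TPM, all below shNT (-2.17, adjusted p = 0.000835). The remaining 6 genes had values from -0.62 (HLA-DMA) to -2.45 (HLA-DMB) and did not pass. DESeq2 called 3 members and 5 had an unadjusted p under 0.05, again with no share over all genes. CIITA had 0.52, 0.64 and 0.19 TPM after shNRP1#3, below the shNT libraries (-2.02, adjusted p = 0.0714). Directly against #3, siNRP1#5 was lower for all 7 genes (background 13.7%) and shNRP1#5 for CD74 (-2.01) and HLA-DPA1 (-1.97, background 3.8%).

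MDA-MB-231 and SUM159PT were compared for the size of the change. For siNRP1#5 no gene differed (0 of 8, background 1.74%, 1 at an unadjusted p under 0.05 in edgeR, the only tool run), with differences between 0.35 and 1.69, all toward a smaller fall in MDA-MB-231. HLA-DRB1 is among the 8, although it had 0 to 2 counts in SUM159PT siNRP1#5 and was not tested within that line. For shNRP1#5 the difference passed for HLA-DPA1 (2.14, adjusted p = 0.00963, background 3.3%), and for shNRP1#3 likewise for HLA-DPA1 (1.81, adjusted p = 0.0498, background 0.82%). Within SUM159PT the siRNA and the shRNA of sequence #5 differed for 1 of 7 genes, HLA-DPA1 (1.73, adjusted p = 0.0451, background 2.51%), which fell further with the shRNA.

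In HS578T, class II levels were higher after siNRP1#5, in the group whose libraries carried the most MDA-MB-231 RNA. Of the 8 genes 7 were called higher (edgeR, background 10.1% higher). HLA-DMB passed the filter through the siNRP1#5 libraries alone, and HLA-DRB1 through those of siNRP1#5 and siNRP1#3, so the count is a description. Among the 5 other genes called, the log2 fold changes ran from 1.95 (CIITA) to 4.29 (HLA-DRA). CD74 stood at 2.22, 2.04 and 5.22 TPM in siNT and at 48.7, 35.4 and 32.7 after siNRP1#5 (3.67, adjusted p = 0.0014). HLA-DRA went from 0.21, 0.24 and 0.49 TPM to 4.83, 6.18 and 6.94 (4.29, adjusted p = 0.000455). HLA-DMA, the member with the highest level in HS578T siNT, was at 7.98, 8.6 and 8.9 TPM in siNT and 7.44, 7.22 and 5.33 after siNRP1#5 (-0.32, adjusted p = 0.595).

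The level that the MDA-MB-231 share would carry was computed for each library in CPM (read counts scaled to library size). For CD74 the measured 67.9, 38.3 and 45.6 CPM compare with 87.5, 64.0 and 45.5 if that RNA had the NT level of MDA-MB-231, and with 40.2, 29.4 and 20.9 if it had the siNRP1#5 level. For HLA-DRA the measured 6.59, 6.49 and 9.71 CPM compare with 9.12, 6.67 and 4.74 and with 1.93, 1.41 and 1.00. In replicate 1 the NT-level value exceeded the measured one for all members but HLA-DMA, and in replicate 3, with the lowest share, it stayed below the measured one for each of the 8. Within the group the share was lowest in replicate 3, where all members but CD74 and HLA-DMA had their highest measured CPM. After subtraction of the other lines' RNA at their NT level, 0 of the 6 genes still tested were higher and CD74 (-9.27, adjusted p = 0.0108) and HLA-DMA (-1.50, adjusted p = 0.0276) were lower. For CD74 the MDA-MB-231 amount alone exceeded the measured one in replicates 1 and 2. In replicate 3 it was 45.48 of the 45.63 CPM measured, before the SUM159PT share of 1.12% was subtracted as well. So -9.27 and its call depend on counts set to 0 or left near it, and -9.27 is not a size. After subtraction at the level of the same treatment, an alternative added after the values were seen, 6 of 8 were higher and CIITA did not pass (2.20, adjusted p = 0.0618). These libraries also carried 1.12 to 8.25% of SUM159PT, and PTPRC, which SUM159PT expressed, was higher in them (5.83).

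**Figure D3:**
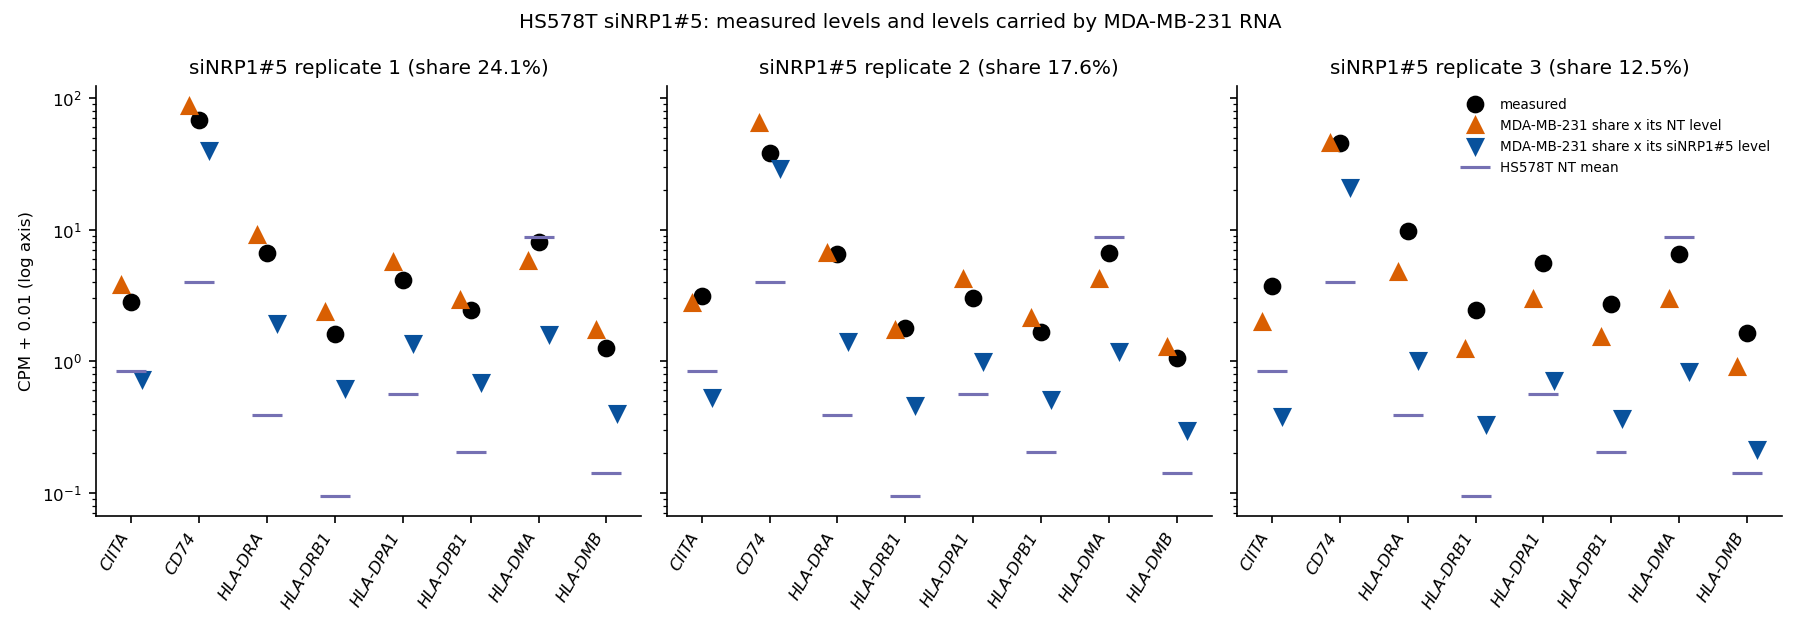
CPM + 0.01 on a log axis for each gene in the 3 HS578T siNRP1#5 libraries, with the measured level (circle), the level carried by the MDA-MB-231 share at its NT level (triangle up) or siNRP1#5 level (triangle down), and the mean of the HS578T NT controls (bar). Measured CD74 lies between both carried levels in replicates 1 and 2, and HLA-DMA lies near the HS578T NT mean.

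The other HS578T groups had low levels. With siNRP1#3, whose libraries carried 1.95 to 6.79% of MDA-MB-231, the changes ran from -0.10 (HLA-DMA) to 2.46 (HLA-DRB1). EdgeR called 0 (background 4.65%). DESeq2 called 1 and 4 had an unadjusted p under 0.05, both with no share over all genes. With shNRP1#3 they ran from -2.08 (HLA-DPA1) to 1.52 (CD74), with 0 called by edgeR (background 0.0356%) or DESeq2 and 1 at an unadjusted p under 0.05. The estimated MDA-MB-231 share of the HS578T shRNA libraries was -0.592 to -0.271%, that is, below 0. It was taken after subtraction of the mean of the siNT and shNT libraries, and was 0.112 to 0.497% without it.

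With shNRP1#5, CIITA stood at 0.13, 0.32 and 0.25 TPM in shNT and at 0.06, 0.03 and 0.02 after knockdown, or 3 to 7 counts. HLA-DMA stood at 8.71, 4.79 and 5.24 TPM in shNT and at 3.39, 1.83 and 2.05. Both groups were below their shNT libraries, with log2 fold changes of -2.28 (adjusted p = 0.0502) and -1.58 (adjusted p = 0.0673). No member was called by edgeR (0 of 8, background 0.946%). An unadjusted p under 0.05 was found for 3, and DESeq2 called 2, both with no share over all genes. In this comparison samples with the same replicate number deviated together, and in a fit that held the replicate number as block CIITA (-2.27, adjusted p = 0.0497) and HLA-DMA (-1.59, adjusted p = 0.0202) were called lower. The siRNA and the shRNA of sequence #5 differed in HS578T for 4 of 8 genes (background 0.854%), CIITA, HLA-DPA1, HLA-DPB1 and HLA-DRB1. HLA-DPB1 and HLA-DRB1 reached the filter on low counts there in no shRNA group, and CIITA and HLA-DPA1 not in shNRP1#5. The siNRP1#5 fold change differed among the 3 lines for 8 of 8 (background 18.2%), and that of shNRP1#5 for 2 (CD74 and HLA-DPA1, background 3.81%). The HS578T siNRP1#5 libraries carried MDA-MB-231 RNA, so the counts that use them are descriptions. CD74 had 0.35, 0.03 and 0.07 TPM in shNT and 0.17, 0.28 and 0.38 after shNRP1#5 (0.38, adjusted p = 0.813).

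The 2 NT controls of a line differ in delivery, selection and time of harvest together. In MDA-MB-231 the 8 genes had log2 differences of shNT against siNT from -0.44 (CD74) to 0.48 (HLA-DRA), with 0 called by edgeR (background 20.6%) or DESeq2 and 1 at an unadjusted p under 0.05. In SUM159PT, HLA-DMA (-1.38, adjusted p = 0.00994) and HLA-DPA1 (-1.25, adjusted p = 0.00993) were lower in shNT (2 of 7, background 8.45%), and each lost its call in 1 of 6 fits without 1 replicate. In HS578T, CD74 (-4.22, adjusted p = 0.00197) and HLA-DRA (-3.00, adjusted p = 0.019) were lower in shNT (2 of 8, background 8.8%), and HLA-DRA lost its call in 3 of 6 fits without 1 replicate. Replicate 3 of HS578T siNT, with 1.32% MDA-MB-231 share, had the highest CD74 (5.22 TPM) and HLA-DRA (0.49 TPM) of its group. That share was taken after subtraction of the mean of the NT libraries themselves. Without subtraction the share was 0.691, 0.988 and 2.19% in siNT replicates 1 to 3 and 0.112 to 0.286% in shNT. With the RNA of the other lines subtracted at their NT level neither call was made. The summed TPM of the white blood cell markers was 18.58 to 28.62 in HS578T shNT and 8.13 to 10.76 in siNT, with CSF1R higher in shNT (1.32), and its part in these differences was not tested.

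Of the factors that bring CIITA to the X and Y boxes, RFX5, the DNA-binding subunit of RFX, was lower with siNRP1#5 in each line, by log2 fold changes of -1.31 in MDA-MB-231 (SE 0.10, adjusted p = 1.85e-08), -1.61 in SUM159PT (SE 0.28, adjusted p = 0.00177) and -0.61 in HS578T (SE 0.19, adjusted p = 0.0335). It stood at 41.3 ± 4.72 TPM in MDA-MB-231 siNT and 14.4 ± 2.78 in siNRP1#5 (n = 3 each). Over all genes, 29.4% passed in either direction in MDA-MB-231 siNRP1#5, 20.7% in MDA-MB-231 shNRP1#5, 17.9% in SUM159PT siNRP1#5, 5.94% in SUM159PT shNRP1#5 and 18.7% in HS578T siNRP1#5. With siNRP1#3 the share was 25.7% in MDA-MB-231, 8.66% in SUM159PT and 4.65% in HS578T, and with shNRP1#3 it was 3.65% in MDA-MB-231. The list counts below are descriptions to be read against these shares. Of the 7 listed factors, 3 were lower in MDA-MB-231 siNRP1#5, among them CREB1 (-0.97), which binds X2, and NFYA (-0.51), a subunit of NF-Y. The list had 1 lower in MDA-MB-231 shNRP1#5, again RFX5 (-0.31, adjusted p = 0.0319). RFX5 was also lower with siNRP1#3 in MDA-MB-231 (-0.30, adjusted p = 0.0288), where RFXAP (0.83) and RFXANK (0.56), its partners, were higher. In SUM159PT siNRP1#5, NFYB was higher (1.22) beside the lower RFX5, and in HS578T siNRP1#5 RFXANK was lower (-1.06). In 7 of the 12 knockdown comparisons no listed factor passed by edgeR, the only tool run on the lists, with 0 to 3 of them at an unadjusted p under 0.05 in each. The list medians were -0.06 in MDA-MB-231 siNRP1#5 and -0.11 in SUM159PT siNRP1#5, against 0.01 over all genes in each.

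Interferon gamma reaches CIITA through its receptor, the kinases JAK1 and JAK2, and IRF1, and the list held 9 genes of this route and its inhibitors. IRF2, which binds the same sites as IRF1, was lower in MDA-MB-231 with siNRP1#5 (-1.16, adjusted p = 5.9e-06) and with shNRP1#5 (-0.63, adjusted p = 0.00382), and in SUM159PT with siNRP1#5 (-1.58, adjusted p = 0.000738) and with shNRP1#5 (-0.94, adjusted p = 0.00938). It stood at 15.6 ± 0.84 TPM in MDA-MB-231 siNT and 5.87 ± 1.45 in siNRP1#5. JAK1 was lower in MDA-MB-231 siNRP1#5 (-0.79) and shNRP1#5 (-0.40) and in SUM159PT siNRP1#5 (-1.0). Of the 9, 2 were lower and 1 higher (SOCS1, an inhibitor, 0.85) in MDA-MB-231 siNRP1#5, a share near that of all genes, with 3 lower in shNRP1#5 (IFNGR2 -0.52), 4 lower in SUM159PT siNRP1#5 (JAK2 -1.37) and 2 lower in shNRP1#5 (IRF1 -0.93). With siNRP1#3 in MDA-MB-231, where the class II genes did not pass, 4 were lower and 1 higher (background 25.7% in either direction). SOCS1 (-0.85), IRF1 (-0.63) and IFNGR2 (0.75) had the largest changes. In SUM159PT siNRP1#3, SOCS1 was lower (-2.01). SOCS1 was higher in HS578T siNRP1#5 (1.54). In 4 of the 12 comparisons, all with shRNA, none of the 9 passed by edgeR, with 0 to 4 at an unadjusted p under 0.05.

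**Figure D4:**
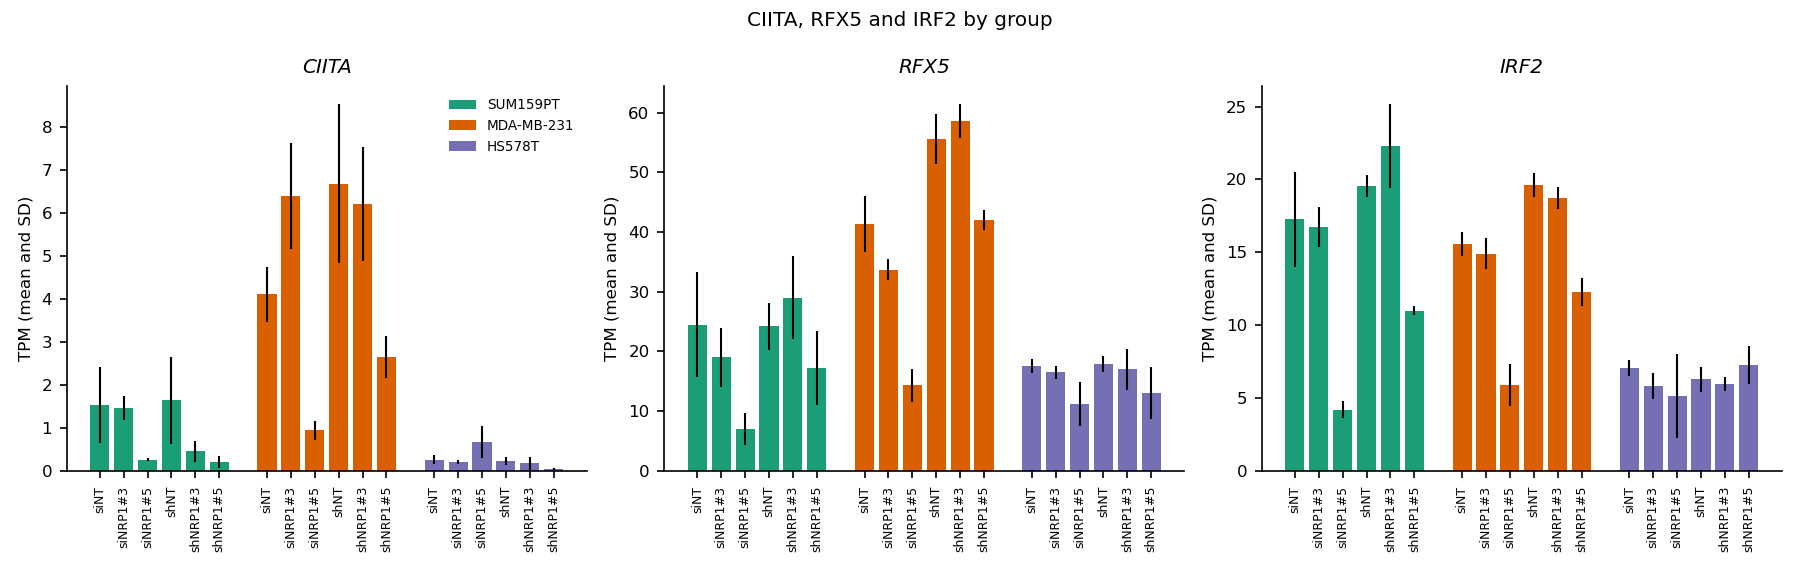
Mean TPM with SD (bars from 0) of CIITA, RFX5 and IRF2 in the 18 groups. In MDA-MB-231 and SUM159PT the siNRP1#5 bar is the lowest of the siRNA groups for all 3 genes, and RFX5 in MDA-MB-231 stands at 55.6 ± 4.15 TPM in shNT and 42.0 ± 1.61 in shNRP1#5.

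Other class II genes were few. Of 10 listed names, 8 were in the tables, and the filter on low counts kept 4 in MDA-MB-231, 2 in SUM159PT and 1 in HS578T. In MDA-MB-231, 3 of 4 were lower with siNRP1#5, HLA-DQB2 (-2.92), HLA-DRB5 (-2.21) and HLA-DQB1 (-2.04), and 3 of 4 with shNRP1#5, HLA-DOA (-2.21), HLA-DQB1 (-2.17) and HLA-DRB5 (-1.65). HLA-DQB1 was the lower gene of SUM159PT, with -2.97 after siNRP1#5 (adjusted p = 0.00998) and -4.77 after shNRP1#5 (adjusted p = 0.00245). In SUM159PT siNRP1#3 the lower gene was HLA-DOB (-2.30), a subunit of the DM inhibitor HLA-DO. HLA-DOA, its other subunit, was higher in HS578T siNRP1#5 (3.99), beside the MDA-MB-231 share of those libraries. In the 6 comparisons without a call by edgeR, 0 genes of this list had an unadjusted p under 0.05.

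The last list held 11 genes for proteins that cut, reduce or turn over endosomal cargo. Cathepsin S (CTSS), which trims the invariant chain, was lower in MDA-MB-231 siNRP1#5 (-1.91, adjusted p = 3.8e-08), higher in MDA-MB-231 shNRP1#3 (0.93), and higher in HS578T siNRP1#5 (3.49), whose libraries carried MDA-MB-231 RNA. Of 10 genes tested in MDA-MB-231, 4 were lower and 1 higher with siNRP1#5 and 5 were lower with shNRP1#5. TFEB, a lysosome regulator, was higher with the siRNA (0.71) and lower with the shRNA (-0.64), and CTSD (-1.07) led the shRNA list. In SUM159PT the aminopeptidase CTSH and MARCHF1, a ubiquitin ligase for class II, were the 2 of 11 that were lower, by -1.20 and -3.36 with siNRP1#5 and by -1.41 and -2.77 with shNRP1#5. LGMN, the asparagine endopeptidase, was lower with siNRP1#3 in MDA-MB-231 (-1.76, 2 of 10 lower with IFI30, -0.65) and in SUM159PT (-2.39, 3 of 11 lower with IFI30, -1.01, and CTSB, -0.78). Over all genes, 25.7% and 8.66% passed in either direction in these comparisons. In HS578T, siNRP1#5 had 3 lower beside CTSS, among them CTSB (-0.79) and CTSL (-0.65), and siNRP1#3 had CTSL lower (-1.01). In 3 comparisons none passed by edgeR, with 1 to 3 at an unadjusted p under 0.05.

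Transcript shares were described in MDA-MB-231, where levels were highest. CD74-202 held 65.3 ± 1.25% of CD74 TPM in siNT and 65.9 ± 1.39% in siNRP1#5. HLA-DRA-202 held 99.1 ± 0.27% of HLA-DRA in siNT. CIITA-214 held 45.07, 49.62 and 30.34% of CIITA in siNT, 56.78, 46.62 and 54.69% after siNRP1#3, and 23.79, 24.4 and 18.12% after siNRP1#5. The siNRP1#5 libraries were the lowest of the 3 siRNA groups. In the shRNA groups CIITA-214 held 38.0 ± 5.49% (shNT) and 42.1 ± 3.63% (shNRP1#5). Shares of the 20 CIITA transcripts rest on 108 to 168 gene counts in siNRP1#5 and are estimates. For HLA-DRB1, 83.3 ± 3.05% of TPM in siNT was HLA-DRB1-205, which the annotation lists without a defined coding sequence.

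Over the 18 MDA-MB-231 libraries the members' log2 CPM had Pearson correlations from 0.616 (CD74 with HLA-DRA) to 0.985 (HLA-DPA1 with HLA-DPB1, which overlap). CIITA had 0.972 with HLA-DMB and 0.670 with CD74. These are descriptions over libraries that share treatments and a line, with no test. Among genes outside the 8, those closest to the mean of the members' standardised log2 CPM over these libraries were UBA7 (r = 0.965), IDUA (0.947), NUMA1 (0.942), PSMB8-AS1 (0.939) and RAB42 (0.938). Over the 18 group means of all lines they were CTSH (0.967), CORO2A (0.956), PRKAG2-AS1 (0.955), NLRP3 (0.949) and SORCS2 (0.948), where the differences between lines weigh most.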

How the data were processed

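Poly(A) RNA was sequenced from 52 cell line samples. Per the labels and the methods of the study, the authors trimmed reads with Trim Galore 0.6.5, checked them with FastQC 0.11.9, aligned them with STAR 2.7.2b to GRCh38 and deposited strand-specific RSEM 1.3.3 expected counts and TPM per gene, and TPM and isoform percent per transcript. Nothing was pooled. Expected counts were rounded and tested with edgeR 4.0.16 (R 4.3.3) by the quasi-likelihood test (filterByExpr, TMM, robust) on 6 group means per line, or 18 over all samples for contrasts between lines (23416 genes), with Benjamini-Hochberg adjustment over all genes tested and a threshold of 0.05. Standard errors are the log2 fold change over the square root of F. The script was tested on simulated siNRP1#5 against siNT comparisons, with 100 changed genes per size. Of changes with a log2 size of 1 it recovered 80% for MDA-MB-231, but only 22% for HS578T and 10% for SUM159PT. At a log2 size of 2 these shares rose to 99%, 88% and 70%. A gene that did not pass, above all outside MDA-MB-231, can therefore still have changed. RNA of other lines was estimated from genes at most 0.5 CPM in the own line and at least 20 CPM in the other. From the CPM of each gene the mean of the own NT controls was subtracted. The share is the median of the remainder over the NT mean of the other line, so it can fall below 0. Depth is known as total counts, and intervals cover the spread between samples only. Where groups are said not to overlap, this describes their 2 or 3 libraries, and no share over all genes is given. Named genes were the 8 members, NRP1, up to 3 called genes per list and comparison with the largest change, and the 5 genes most like the members' mean. Members and lists were chosen with earlier results of these data known. Replicate numbers paired the samples, by the rule of 3 pairs with every r above 0.1, in SUM159PT siNRP1#3 (0.159 to 0.332) and shNRP1#3 (0.111 to 0.389), MDA-MB-231 siNRP1#5 (0.248 to 0.338) and HS578T shNRP1#5 (0.201 to 0.610). SUM159PT siNRP1#5 and HS578T shNRP1#3 had 2 pairs, too few for the rule. Alternatives were DESeq2 1.42.0 and its size factors, no filter, 2-group fits, leaving out replicates, a replicate block and subtraction of foreign RNA. The background shares are of edgeR calls, and none is given for DESeq2 calls or unadjusted p-values. Replicates differed by at least 11.0 in chi-square per degree of freedom, so none was a duplicate. Promoter sequences are from RefSeq (GRCh38.p14), and positions from GENCODE on GRCh38. Figures used matplotlib 3.10.9. Some genes of the lists are not reported here.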

Additional observations from a re-analysis of the deposited data

Results flagged for a closer look

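The log2 fold change of siNRP1#5 differed between the 3 cell lines for all 8 genes (F test over 18 group means, background 18.2% of genes), with adjusted p-values of 4.46e-07 for CD74, 7.28e-08 for CIITA, 0.00975 for HLA-DMA, 3.60e-06 for HLA-DMB, 1.13e-09 for HLA-DPA1, 7.00e-08 for HLA-DPB1, 5.17e-09 for HLA-DRA and 4.87e-07 for HLA-DRB1. HS578T, the line with higher values for 7 of them, had 12.5 to 24.1% MDA-MB-231 RNA in those libraries. HLA-DRB1 was kept out of the SUM159PT fits by the filter on low counts, so the count over the 8 genes is a description. For shNRP1#5 the lines differed for CD74 (adjusted p = 0.0200) and HLA-DPA1 (adjusted p = 0.00553, background 3.81%).

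Between MDA-MB-231 and SUM159PT the fold change of HLA-DPA1 differed by 2.14 for shNRP1#5 (adjusted p = 0.00963) and by 1.81 for shNRP1#3 (adjusted p = 0.0498), each smaller in size in MDA-MB-231.

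The siRNA and the shRNA of sequence #5 differed for CIITA in MDA-MB-231 (-0.97, adjusted p = 0.0262) and for HLA-DPA1 in SUM159PT (1.73, adjusted p = 0.0451). In HS578T they differed for CIITA (4.22, adjusted p = 0.0124), HLA-DPA1 (4.31, adjusted p = 0.0019), HLA-DPB1 (4.91, adjusted p = 0.0259) and HLA-DRB1 (5.29, adjusted p = 0.0432), where the siRNA libraries held MDA-MB-231 RNA and the shRNA libraries did not by the same measure. HLA-DPB1 and HLA-DRB1 reached the filter on low counts in HS578T in siRNA groups only. No group had 4 or more samples, so no single sample was tested against its group.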

How the results depend on the processing

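Of 61 called fold changes, 625 values under alternatives kept direction and call, 35 lost the call, 2 reversed and 13 moved. Of 52 uncalled ones, 571 did not change call or direction, 37 gained a call, 20 reversed and 2 moved. The 52 leave out HS578T fold changes that no fit called, and those with at most 3 counts in every library of both groups. Those kept for HS578T were thus chosen in part by outcome. The numbers of called members over the 4 knockdown comparisons were 16 for MDA-MB-231, 12 for SUM159PT and 7 for HS578T, with 4 for shNT against siNT and 22 between lines. With only 2 groups fitted SUM159PT had 5. Without its siNRP1#5 libraries HS578T had 0, since its 7 calls all belonged to the comparison that this left out. With no filter it had 11, and with other lines' RNA subtracted at the NT level it had 2. The shNT comparisons had 7 with no filter and 2 with that subtraction. The cause was not tested beyond what these alternatives leave out. Leaving out each replicate gave 14 to 16 calls for MDA-MB-231, 9 to 14 for SUM159PT, 7 to 9 for HS578T, 2 to 5 for shNT against siNT (2 without SUM159PT shNT replicate 3) and 22 to 22 between lines.

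Signs reversed in fits without 1 replicate for uncalled genes. In SUM159PT siNRP1#3 CD74 ran from -0.87 to 0.039 and HLA-DRA from -0.13 to 0.80, and in shNT against siNT CIITA ran from -0.90 to 0.10. In MDA-MB-231 siNRP1#3 HLA-DMA ran from -0.23 to 0.12, HLA-DRA from -0.16 to 0.44 and HLA-DRB1 from -0.31 to 0.42. In MDA-MB-231 shNRP1#3 HLA-DMB ran from -0.19 to 0.085, HLA-DRA from -0.30 to 0.13 and HLA-DRB1 from -0.20 to 0.18. HLA-DMA of SUM159PT against HS578T ran from -0.30 to 0.030, and was 0.31 with siNT alone. Subtraction at the NT level gave CD74 -2.76 in HS578T siNRP1#3 and -9.27 in siNRP1#5, with CIITA -0.10 in siNRP1#5, and subtraction at the level of the same treatment gave CD74 -9.27 in siNRP1#3. In siNRP1#3 the amount subtracted from CD74 exceeded the measured one in replicates 2 and 3 at the NT level. At the level of the same treatment it did so in every library. These CD74 values depend on counts set to 0 and are not sizes.

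With the replicate block, CIITA and HLA-DMA in HS578T shNRP1#5 were called, as given with the results. Where the numbers do not pair the samples, the block moved CD74 of SUM159PT shNT against siNT (-1.43, adjusted p = 0.0375) and HLA-DRB1 of HS578T siNRP1#3 (2.52, adjusted p = 0.0308) past the threshold, and it changed no other call. Few reads limit HLA-DRA, HLA-DRB1 and HLA-DMB in SUM159PT and all members but HLA-DMA in HS578T.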
